A study of Mus musculus with 10 samples.

Results

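Mss51, listed under the older name Zmynd17 in some sources, is followed here in RNA of the gastrocnemius, a large muscle of the calf, from 10 mice. All were males of 7.5 months with a C57BL/6 background. It is 1 gene of the 18194 that have a probe set of their own in the platform annotation. A single probe set of the 45101 on each array, 1432001_at, carries its symbol, no probe set names it together with another gene, and it passed the filter on dim probe sets (a mean log2 intensity of 4 or more). The gene was chosen by its difference in log2 intensity between knockout and control arrays, so that difference is given below as a description and without a test.

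The knockout group (labelled Floxed_Mstn, n = 5) carried floxed myostatin genes, which Cre recombinase can cut out, and the control group (WT_Mstn, n = 5) carried normal ones. All 10 mice carried the CAGG-CreER transgene, a Cre that tamoxifen activates and that a broadly active promoter drives, so the deletion is not limited to muscle fibres by its design. All of them also received 8 tamoxifen injections from 4 months of age, so Cre and tamoxifen are shared by both groups. The question was how gene expression in grown muscle differs once myostatin, a secreted inhibitor of muscle growth, has been removed. No probe set carries the symbol Mstn, and the extent of the deletion was not analysed here. The labels do not say whether arrays share a litter or a processing day.

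Mss51 encodes a mitochondrial protein with a MYND zinc finger, a small fold that binds zinc and usually other proteins. The related protein of yeast is needed to translate the mitochondrial messenger RNA of Cox1, the core subunit of cytochrome c oxidase (complex IV), the last enzyme of the respiratory chain. In mammals the gene is active mainly in skeletal muscle, and it is known from earlier work as a gene that falls when myostatin or TGF-beta signalling is blocked and as a brake on oxidative metabolism. In RefSeq (GRCm38.p6) it lies on chromosome 14, on the minus strand, and 0 other genes overlap it in that table.

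The sequence just upstream of Mss51 is shown because myostatin acts on genes through Smad transcription factors, and the window holds a whole palindromic Smad element. These are the 250 bases before the RefSeq start, at chr14:20496902-20497151 in GRCm38.p6 on the minus strand, written 5′ to 3′ with that element in capitals.
Mss51 upstream: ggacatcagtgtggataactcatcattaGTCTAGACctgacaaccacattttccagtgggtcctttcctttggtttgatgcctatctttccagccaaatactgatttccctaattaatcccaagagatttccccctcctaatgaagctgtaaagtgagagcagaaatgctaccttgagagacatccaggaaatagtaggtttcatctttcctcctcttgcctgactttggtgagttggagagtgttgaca

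The element GTCTAGAC, which reads the same on both strands, spans positions -222 to -215 from the start. It is present in 55 of 32841 windows of this length in the RefSeq promoter table, or 0.167%, and the motif was chosen after this sequence had been read. The short Smad core GTCT, searched on both strands, matched 3 times, and 2 of these matches lie inside the palindrome. A window holds it in 82.9% of cases, and 29.1% of windows hold at least 3 matches. Nothing in the window matched an E-box (CANNTG, the site of MyoD-type factors, present in 66.2% of windows), a MEF2 site (2.92%), the ERR site TNAAGGTCA (1.14%) or TATAAA (12.4%), on either strand. The window holds 0 CpG dinucleotides, where the median over all windows is 6, and 43.2% of its bases are G or C, against a median of 52.4%. A match of letters is a description and not evidence of binding.

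Mss51 was expressed well inside the range of the arrays, whose lowest log2 intensity lay between 1.83 and 1.92 and whose highest lay between 16.01 and 16.07. In control muscle its deposited linear intensity was 10854 in control 1, 8238 in control 2, 6942 in control 3, 9754 in control 4 and 9338 in control 5. In knockout muscle it was 3258 in knockout 1, 3445 in knockout 2, 3296 in knockout 3, 4229 in knockout 4 and 2187 in knockout 5. All 5 knockouts lay under all 5 controls and the groups did not overlap. The lowest control was still 1.64-fold above the highest knockout.

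On the log2 scale the control mean was 13.12 ± 0.25 and the knockout mean 11.65 ± 0.35 (SD, n = 5 each). The difference was -1.47 (SE 0.18 in the limma fit), a level 2.78-fold lower in knockouts. The ratio of mean linear intensities, 9025 ± 1494 in controls to 3283 ± 729 in knockouts, was 2.75. The spread inside a group was smaller than this difference, with the highest control 1.56-fold above the lowest and the highest knockout 1.93-fold above the lowest. Of the 21154 probe sets compared, 15 had a difference at least as large in either direction and 8 were at least as much lower, Mss51 counted in both. Because these samples are whole muscle, fewer cells of a type and less RNA per cell cannot be told apart in any value given here.

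**Figure D1:**
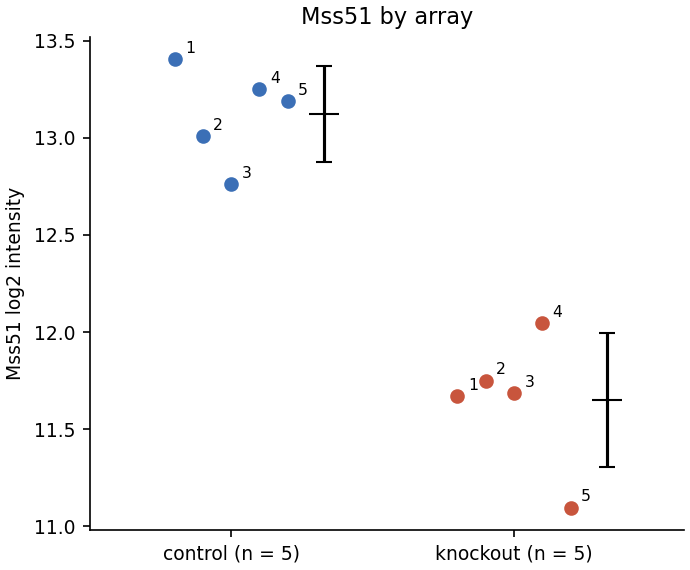
Mss51 in each array, with the replicate number beside each point and the mean ± SD as a bar (n = 5 per group). The axis gives log2 intensity, and every knockout lies below every control.

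General markers of muscle fibres were read beside Mss51. The mean log2 intensity of 8 of them (Ckm, Acta1, Des, Mb, Pygm, Myh4, Tnnt3 and Actn3, genes of creatine kinase, the contractile apparatus, oxygen storage and glycogen use) was 14.86 ± 0.0042 in the control group and 14.89 ± 0.035 in the knockout group (SD, n = 5 each). All 8 lie near the top of the intensity scale (a mean log2 intensity of 14 or more), where differences are compressed, so these means do not show whether fibre RNA differed between the groups.

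**Figure D2:**
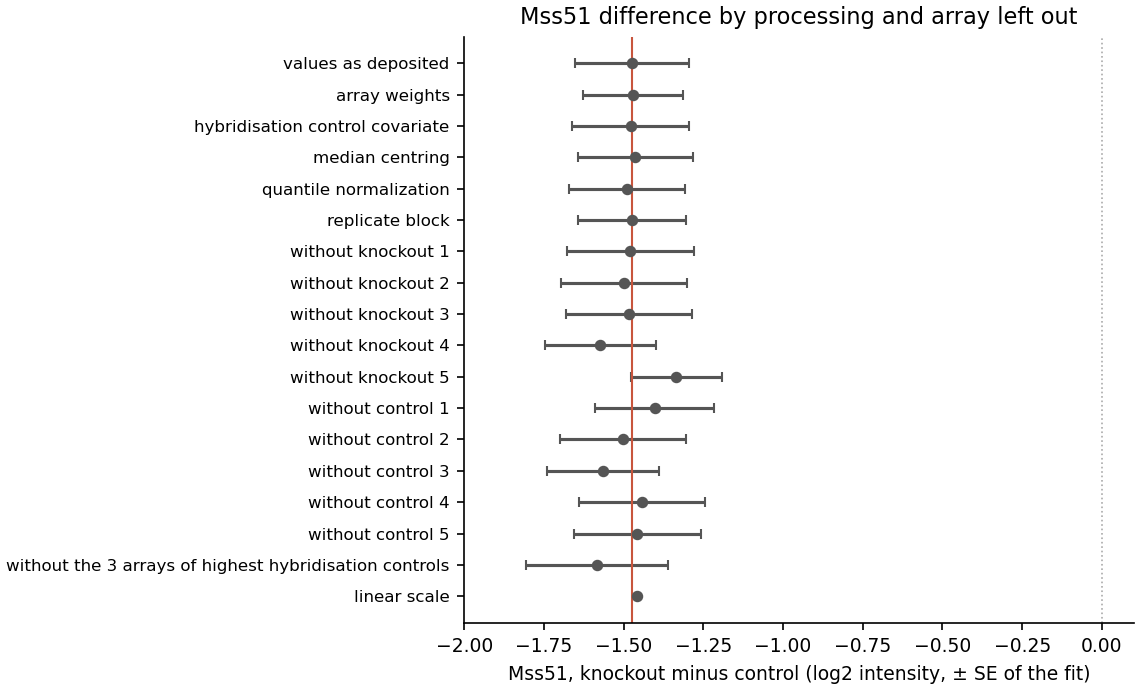
The Mss51 difference (knockout minus control, log2 intensity, with the SE of the fit where there is one) under each alternative processing and with each array left out; the red line is the value as deposited, -1.47. Every value lies between -1.58 and -1.34.

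The difference stayed on the same side of 0 in all alternatives run. With each array left out in turn it ran from -1.57, without knockout 4, to -1.34, without knockout 5, the array of lowest Mss51. Without the 3 arrays on which the bacterial hybridisation controls (RNA added to each array in a fixed amount) were brightest, which are control 3, knockout 1 and knockout 3, it was -1.58.

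Within each group Mss51 varied more than most probe sets of like brightness. Its within-group SD of 0.30 exceeded that of 97.4% of the 941 probe sets whose mean lay within 0.5 of its own, where the median SD was 0.10. Control 3 lay 0.36 under its group mean and knockout 5 lay 0.55 under its own, while control 1 was 0.28 and knockout 4 was 0.40 above theirs. The other 6 arrays lay within 0.13 of their group means.

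Measures of array quality were set against these within-group deviations over the 10 arrays, with exact permutation of arrays within groups (two-sided, 14400 arrangements, 4 relations). For the hybridisation controls Pearson's r was 0.072 (exact permutation p = 0.891, adjusted 0.961) and Spearman's rho -0.19 (exact p = 0.644, adjusted 0.834). Leaving out the 2 arrays farthest from the median gave an r of 0.41, and leaving out single arrays gave -0.55 to 0.31, so neither a size nor a direction is fixed. The added controls averaged 13.12 ± 0.14 (log2, SD, n = 5) on the arrays of control mice and 13.15 ± 0.25 on those of knockouts.

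Signs of RNA integrity were compared in the same way. The 3′ minus 5′ signal of Gapdh, which grows as RNA degrades, gave an r of -0.062 (exact permutation p = 0.871, adjusted 0.961), a rho of -0.15 (exact p = 0.698, adjusted 0.834) and an r of 0.33 without 2 arrays. For beta-actin r was -0.33 (exact permutation p = 0.355, adjusted 0.961), rho -0.28 (exact p = 0.455, adjusted 0.834) and r without 2 arrays -0.38. The fibre marker mean gave an r of 0.013 (exact permutation p = 0.961, adjusted 0.961), a rho of 0.091 (exact p = 0.834, adjusted 0.834) and an r of -0.52 without 2 arrays. None of the 4 relations passed at n = 10. The Gapdh measure averaged 0.49 ± 0.026 (SD, n = 5) in the control group and 0.45 ± 0.031 in the knockout group. The beta-actin measure averaged 1.47 ± 0.057 and 1.40 ± 0.047 (SD, n = 5 each), so both were lower in knockouts, and their part in the Mss51 difference was not tested.

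The genes most like Mss51 were ranked by the same deviations from group means, so that the group difference itself played no part. Over 21153 other probe sets the median correlation was 0.063, and 57.1% were above 0. The highest was 0.94, 76 probe sets reached 0.8, and 47 were at or below -0.8. Each correlation rests on 10 arrays of 10 mice and was picked as an extreme from all probe sets, so it carries no p.

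The 6 named genes of highest correlation were Ncl (nucleolin, a protein of ribosome assembly, r = 0.92), Pggt1b (a subunit of a protein prenyltransferase, 0.91), Ubl5 (a ubiquitin-like splicing protein, 0.91), Nsrp1 (a splicing regulator, 0.91), Bfar (an apoptosis regulator, 0.90) and Rpf2 (a ribosome biogenesis factor, 0.90). None of them was called between the groups by limma, at the adjusted or the unadjusted threshold of 0.05 (0 of 6 each), with differences from -0.26 to 0.20. The lowest r with any 1 array left out was 0.80, for Bfar, and Spearman's rho was between 0.68 and 0.84. Other probe sets of these genes followed Mss51 less closely: those of Ncl gave -0.46 to 0.48 and those of Rpf2 -0.33 to 0.20, while those of Bfar gave 0.55 to 0.71.

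At the other end stood Atxn10 (-0.90), Atp6v0b, a subunit of the vacuolar proton pump (-0.90), Stt3a, a catalytic subunit of protein N-glycosylation (-0.89), Akr1a1, an aldehyde reductase (-0.89), Ric8a, a chaperone of G proteins (-0.88), and Acaa1a, a thiolase of peroxisomal fatty acid oxidation (-0.88). Of these 6, 5 were measured by probe sets whose suffix marks probes shared between transcripts. Atp6v0b varied by an SD of only 0.014 within groups and its other probe sets gave 0.20 and 0.26. Those of Akr1a1 gave -0.24 to -0.0065, and another of Ric8a gave -0.14. Those of Atxn10 ran from -0.81 to 0.49 and those of Stt3a from -0.63 to 0.18. Across both sets the pattern was carried by low values of Mss51 in control 3 and knockout 5 and high values in control 1 and knockout 4. Control 3 is also among the 3 arrays with the brightest hybridisation controls. With those controls fitted out of every gene, the 6 highest gave 0.91 to 0.93 and the 6 lowest -0.92 to -0.88.

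**Figure D3:**
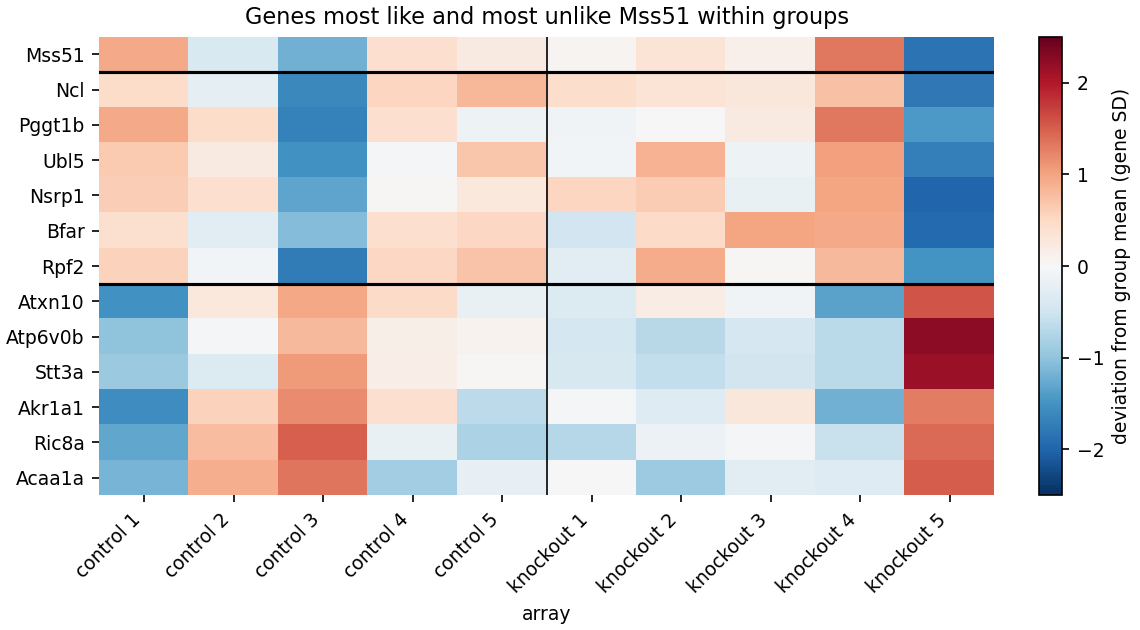
Deviation of each array from its group mean, in units of each gene's within-group SD, for Mss51 (top row), the 6 genes of highest and the 6 of lowest correlation with it. Mss51 is lowest in control 3 and knockout 5, where the 6 genes below it are also low and the last 6 are high.

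When the group difference was kept in, the genes most like Mss51 over the 10 arrays were Armcx3, a protein of the mitochondrial outer membrane (r = 0.94), U2surp, a splicing factor (0.93), the kinase gene Stk25 (0.92), Vtn, the adhesion protein vitronectin (0.91), Sec61a1, the channel of protein entry into the endoplasmic reticulum (0.91), and Casc3, of the exon junction complex (0.90). These values are set partly by the contrast through which Mss51 was chosen. Within groups the correlation was 0.74 for Armcx3, 0.68 for U2surp and 0.68 for Casc3, but 0.39 for Stk25, 0.34 for Vtn and 0.29 for Sec61a1. Other probe sets gave 0.25 within groups for Armcx3, and 0.65, -0.14 and -0.22 for U2surp. They gave 0.20 for Vtn, and -0.18 and 0.20 for Sec61a1. Armcx3 differed by -0.49 between the groups and did not pass (limma adjusted p = 0.204).

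Genes of the pathways around Mss51 were read from the same limma fit, with p-values adjusted over all probe sets (Benjamini-Hochberg) and the brightest probe set standing for each gene. In that fit 21 of 21154 probe sets (0.0993%) passed an adjusted p of 0.05, 11 higher and 10 lower. By brightest probe set 14 of 10704 genes (0.131%) passed, 953 (8.9%) had an unadjusted p under 0.05, and 51.5% had a lower value in knockouts. These counts include Mss51, from which nothing is read because the contrast chose it. It left them in 9 of 10 fits with an array left out and in 3 of 9 other alternatives (no filter on dim probe sets, the replicate number as a block, and leaving out 3 arrays). Over 10 pathway lists 0 of 267 measured genes passed and 12 had an unadjusted p under 0.05. The median difference over all 10704 genes was -0.0049.

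Complex IV is the enzyme whose core subunit depends on Mss51 in yeast. Of its 16 measured nuclear-encoded subunits 10 had lower and 6 higher values, with a median of -0.023 and differences from -0.45 to 0.030, and 0 passed by limma (0 at unadjusted p under 0.05). The lowest p values belonged to Cox6a1 (-0.19 ± 0.10 SE, adjusted p = 0.737) and Cox4i2 (-0.45 ± 0.24, adjusted p = 0.737). Cox4i2 lay at 4.10 in knockouts, near the filter level. Of 24 assembly factors 16 had higher values, with a median of 0.032, and 0 passed (0 at unadjusted p under 0.05). Coa5 (0.13) and Lrpprc, a protein that stabilises mitochondrial messenger RNAs (0.16), had the lowest p, with adjusted p of 0.736 and 0.758. For 7 of the 16 subunits the mean log2 intensity was 14 or more, where differences are compressed. Subunits encoded in the mitochondrial genome, Cox1 among them, are on no list here.

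Mitochondrial translation, the step at which the yeast protein acts, was covered by 27 factors and 78 ribosomal proteins. The factors had a median of 0.060, with 18 higher and 9 lower values, and 0 passed by limma (0 at unadjusted p under 0.05). Fars2, a mitochondrial transfer RNA synthetase, had 0.28 (adjusted p = 0.675), and Vars2, another, had 0.48 (adjusted p = 0.727). The ribosomal proteins had a median of 0.039, with 55 higher and 23 lower values. None passed, and 2 had an unadjusted p under 0.05: Mrpl57 (0.19, adjusted p = 0.631) and Mrpl50 (0.19, adjusted p = 0.649).

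Other genes with a MYND zinc finger did not pass either. Of 16 measured members 9 had higher and 7 lower values, with a median of 0.013, and 1 had an unadjusted p under 0.05 by limma. This was Smyd1, a muscle histone methyltransferase needed for sarcomere assembly, which lay between 11.21 and 11.48 in controls and between 11.46 and 11.76 in knockouts (0.25 ± 0.079 SE, adjusted p = 0.469). Zmynd11, a reader of methylated histones, had -0.14 (adjusted p = 0.664).

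Fibre type was examined because Mss51 is known as a gene of fast glycolytic fibres. Of 25 fast fibre and glycolytic genes 22 had higher values, the median was 0.032 and 0 passed by limma (0 at unadjusted p under 0.05). For 21 of these 25 the mean log2 intensity was 14 or more, where differences are compressed, and a real difference could read as a small value. Actn3, a Z-disc protein of fast fibres, had 0.078 and Pkm, the last enzyme of glycolysis, had 0.079 (adjusted p = 0.848 and 0.885). Of 18 slow oxidative fibre genes 15 had lower values, with a median of -0.13, and 0 passed. Only Mb, the oxygen store myoglobin, had an unadjusted p under 0.05 by limma (-0.14 ± 0.059 SE, adjusted p = 0.622). It lay at 14.70 to 14.82 in controls and at 14.57 to 14.69 in knockouts. Myl2, a slow myosin light chain, had -0.22 (adjusted p = 0.797). For 7 of these 18 slow fibre genes, Mb and Myl2 among them, the mean log2 intensity was also 14 or more.

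Genes of oxidative metabolism showed the same lack of calls. Of 19 regulators 10 had lower and 9 higher values (median -0.023), and 0 passed by limma (0 at unadjusted p under 0.05). Esrra, a nuclear receptor that drives mitochondrial genes, had 0.19 and Sirt1, a deacetylase, had -0.24 (adjusted p = 0.797 and 0.856). For fatty acid uptake and oxidation 15 of 23 members had higher values (median 0.053), and 1 had an unadjusted p under 0.05. This was Acads, the short-chain acyl-CoA dehydrogenase (0.26 ± 0.096 SE, adjusted p = 0.541), followed by Decr1 (0.17, adjusted p = 0.723).

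Among genes of myostatin and TGF-beta signalling, upstream of Mss51 in the earlier work, 12 of 21 had lower values (median -0.026). None passed by limma, but 7 of 21 (1 higher and 6 lower) had an unadjusted p under 0.05, where 8.9% of all genes did. The list was chosen with earlier results of these data known, so this count is a description. Skil, a repressor of Smad signalling that the pathway itself induces, had -0.48 ± 0.12 (SE, adjusted p = 0.285). Fstl1, a secreted follistatin-like protein, had -0.52 ± 0.13 (adjusted p = 0.319). Fst and Smad7, both inhibitors of the pathway, were named after their values were seen and stood at -0.62 and -0.35 (adjusted p = 0.342 and 0.469). The groups did not overlap for Fst or Smad7, but how often this holds over all genes was not counted. It also held for Eno3, a fast fibre gene with a difference of only 0.045. Another probe set of Smad7 gave -0.054.

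**Figure D4:**
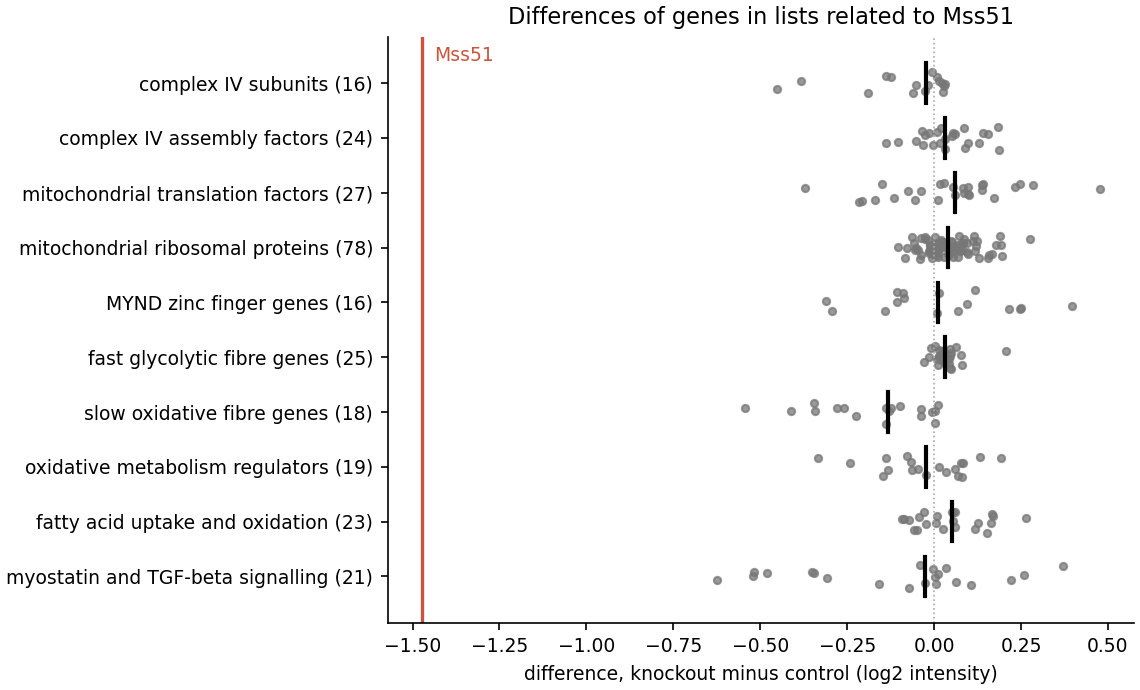
Difference between knockout and control (log2 intensity) for each measured gene of the 10 pathway lists, with the number of genes in parentheses and a black bar at each list's median. The red line marks Mss51 at -1.47; the lowest gene of any list is Fst at -0.62.

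Within groups the lists followed Mss51 loosely at most. Correlations above 0 were found for 54 of 78 mitochondrial ribosomal proteins (median 0.18), 16 of 24 complex IV assembly factors (0.22) and 11 of 16 MYND genes (0.19). The median over all genes was 0.067, and 57.1% of the other probe sets were above 0. The counts were 17 of 27 for translation factors, 13 of 25 for fast and 8 of 18 for slow fibre genes. They were 8 of 16 for complex IV subunits, 8 of 19 for regulators, 11 of 23 for fatty acid genes and 10 of 21 for signalling genes. The highest among assembly factors were Surf1 (0.80), Lrpprc (0.76) and its partner Slirp (0.76), named after their values were seen. Slow fibre genes had a median of -0.053 and fast fibre genes one of 0.015. These are correlations across the same 10 arrays, and members of a list share those arrays, so the counts are descriptions.

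The chromosomal neighbours of Mss51 did not share its difference. Of the 10 protein-coding genes on each side in RefSeq gene order, 18 were measured and 2, Kcnk5 and Kcnk16, lay under the filter. None of the 18 passed by limma and 1 had an unadjusted p under 0.05, with 10 lower and 8 higher values, a median of -0.020 and a range from -0.28 to 0.082. Anxa7, an annexin on one side, differed by 0.017 (adjusted p = 0.994), and Ppp3cb, a calcineurin subunit on the other, by 0.018 (adjusted p = 0.990). Cfap70 had -0.28, Mrps16 -0.013, Usp54 -0.24 and Myoz1, a Z-disc protein of fast fibres, 0.049 (adjusted p from 0.812 to 0.993). Cfap70 lay near the filter level, at 5.35 ± 0.44 in controls and 5.06 ± 0.0105 in knockouts (SD). Fut11, the gene with an unadjusted p under 0.05, had -0.20 (adjusted p = 0.592). Myoz1, Mrps16 and Chchd1 are also members of the lists above.

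**Figure D5:**
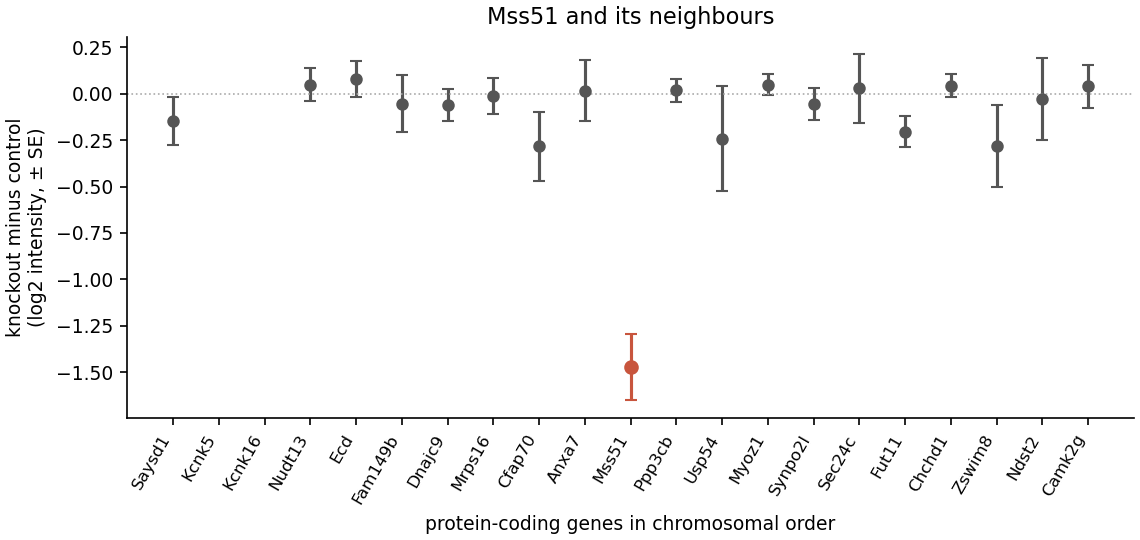
Difference between knockout and control (log2 intensity ± SE of the fit) for Mss51 (red) and the protein-coding genes on either side of it, in chromosomal order at equal spacing. Kcnk5 and Kcnk16 have no value; the other 18 lie between -0.28 and 0.082, and Mss51 lies at -1.47.

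The palindromic Smad element was present upstream of 53 other genes. Of these, 21 were measured, 13 with lower and 8 with higher values, 0 passed by limma and 1 had an unadjusted p under 0.05. Their median difference was -0.0050, beside -0.0049 over all genes.

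Of 39 measured markers of cells other than muscle fibres 36 had lower values in knockouts, and 1 passed by limma. The 3 with higher values were Cdh5 (0.0049), Cidec (0.099) and Cdh15 (0.11), of endothelial, fat and satellite cells. All 8 fibroblast markers had lower values (median -0.42), and their summed linear intensity was 25811 to 31848 in controls and 17026 to 23420 in knockouts. Each sum given for a marker list is weighted toward its brightest members, so it is not a total for the cell type. Col1a2, a chain of type I collagen, was the single marker to pass by its brightest probe set, at -0.84 ± 0.12 (SE, limma adjusted p = 0.0494), and another of its probe sets gave -1.15 (adjusted p = 0.0264). Col1a1, the other chain, had -0.71 by its brightest probe set (limma adjusted p = 0.104) and -1.12 by a dimmer one (adjusted p = 0.0264). By brightest probe set Col1a2 lost its call whenever any array other than knockout 5 was left out. With the 8 fibre markers, 1 of 47 marker genes passed, where 0.131% of all genes did, and 19 had an unadjusted p under 0.05 by limma, where 8.9% of all genes did. These 19 were 6 of 6 tendon, 5 of 8 fibroblast, 4 of 4 smooth muscle, 2 of 6 endothelial, 1 of 3 Schwann cell and 1 of 8 fibre markers, with 0 of 6 macrophage, 0 of 3 adipocyte and 0 of 3 satellite cell markers. The marker lists were chosen with earlier results of these data known, so these counts are descriptions. All 6 tendon markers were lower (median -0.86), with sums of 28327 to 34542 in controls and 15063 to 29350 in knockouts, and Thbs4 had the lowest p (-0.81, adjusted p = 0.197). Of these tendon markers Cilp2, at 4.26 in knockouts, and Scx, at 4.83, lay near the filter level.

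The remaining marker lists were smaller in number or difference. Lower values were found for 6 of 6 macrophage markers (median -0.36; sums 7386 to 10855 and 5247 to 9485 in controls and knockouts), 5 of 6 endothelial (-0.21; 3002 to 3379 and 2509 to 2886) and 4 of 4 smooth muscle markers (-0.45; 3430 to 4232 and 2317 to 3458). They were also found for 3 of 3 measured Schwann cell markers (-0.38; 4999 to 6833 and 4199 to 6116), 2 of 3 adipocyte (-0.092; 16900 to 19485 and 15440 to 20164) and 2 of 3 satellite cell markers (-0.15; 351 to 445 and 313 to 429). The members of lowest p were Csf1r (-0.37), Tek (-0.27), Myh11 (-0.49), Pmp22 (-0.31), Fabp4 (-0.092) and Pax7 (-0.31), with adjusted p from 0.417 to 0.905. No defining marker can be at 0 on this scale, and Lep lay under the filter. The part of these cells in the Mss51 difference was not tested. Within groups, 0 of 8 fibroblast markers correlated with Mss51 above 0 (median r -0.28, 10 arrays). The counts above 0 were 0 of 3 Schwann cell, 1 of 6 tendon and 1 of 4 smooth muscle markers. They were 3 of 6 endothelial, 3 of 6 macrophage, 2 of 3 adipocyte and 1 of 3 satellite cell markers. Members of a list share the same arrays, so these counts are descriptions.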

How the data were processed

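Gastrocnemius RNA was hybridised to 1-colour arrays. The deposited table holds linear intensities made by the authors with GCRMA, per the submitters' processing notes, which corrects background, normalizes between arrays and summarises probes; no version or setting is named in the labels. Of 45101 probe sets, 34958 carry 1 symbol in the platform annotation, 932 several and 9211 are not listed. The log2 of the intensity was taken with no further normalization, 64 control probe sets were left out, and 21154 with a mean of 4 or more were fitted in R 4.3.3 by limma 3.58.1 (two-sided, lmFit then eBayes, Benjamini-Hochberg). Arrays have no read depth: 5 per group limit the precision, and p-values measure the spread between these mice. The fit was tested on simulated data with differences larger than that of any list gene. That test does not show how often differences as small as those of the lists would pass. Of 346 entries in 19 gene lists 327 matched a symbol and 314 were measured. Promoters and gene order come from RefSeq, GRCm38.p6. Mss51, the lists and the tests were chosen with earlier results of these data known.

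The naming rule takes Mss51, the 6 genes of highest and lowest within-group correlation, the 6 most like it over all arrays, up to 4 members of lowest p per list (here 2 per pathway and 1 per marker list) and 3 neighbours per side. Unnamed transcripts were skipped. The smallest p of the exact permutation is 6.94e-05. Alternatives were quantile normalization, median centring, array weights, a hybridisation control covariate (7 probe sets), the replicate number as a block, a variance trend with a robust fit, no filter, the mean of a gene's probe sets, a linear scale and leaving out arrays. Python 3.11.15 and matplotlib 3.10.9 were used for the figures.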

Additional observations from a re-analysis of the deposited data

Results flagged for a closer look

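Of 108 groups of 5 arrays tested (53 genes and the hybridisation controls), 6 held an array far from the rest, where chance gives about 1 in 20, or 5.4. Neither group of Mss51 did. Knockout 5, the array of lowest Mss51, stood apart for 3 genes of the within-group ranking: Ncl at 9.89 against 10.23 to 10.31 in the other knockouts, Atp6v0b at 7.65 against 7.61 in each of the others, and Stt3a at 5.76 against 4.55 to 4.68. These genes were picked for following or opposing Mss51, so flags on that array are not independent of it. Control 2 was high for Cox4i2 (4.85 against 4.44 to 4.53), and control 5 was low for Pmp22 (12.25 against 12.58 to 12.70). Knockout 4 was high for Anxa7, the neighbour of Mss51, at 11.05 against 10.72 to 10.77.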

How the results depend on the processing

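The Mss51 difference of -1.47 moved by less than the spread between replicates under each of these alternatives: -1.46 with median centring or on the linear scale, -1.47 with array weights or the replicate number as a block, -1.48 with the hybridisation control covariate, -1.49 after quantile normalization, -1.58 without 3 arrays, and -1.57 to -1.34 with each array left out. The counts without 3 arrays were added after seeing the data. The 21 probe sets past the threshold became 11 with no filter, 36 after quantile normalization, 58 with a variance trend and robust fit, 67 with array weights, 99 with the covariate, 5 without 3 arrays, and 1 to 17 with each array left out. With the replicate block 1 passed; same-numbered arrays' deviations correlated at -0.51, 0.13, 0.62, -0.20 and 0.19, and 2 of 10 arrays matched their own number best, so the numbers were not taken as pairs. Pathway list genes and neighbours past the threshold stayed at 0 under all of these alternatives. The 1 marker (Col1a2) became 2 (with Col1a1) with the mean of a gene's probe sets or the variance trend, and 0 with no filter, with the block or without 3 arrays; single arrays left out gave 0 to 1. The r of 0.072 with the hybridisation controls ran from -0.55 to 0.31. The causes were not tested. Signal over background limits Cox4i2, Vars2, Ubl5, Stt3a, Cilp2, Scx and Cfap70, whose levels lie near the filter. Compression near the top of the scale limits the fibre markers, 21 of 25 fast fibre genes and 7 of 18 slow fibre genes. It also limits 7 of 16 complex IV subunits and 4 of 23 genes of fatty acid uptake and oxidation. The tendon marker Fmod, the adipocyte marker Fabp4 and 1 of 78 mitochondrial ribosomal proteins are limited in the same way.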
